A study of Mus with 6 samples.

Results

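Transcripts of 9 genes of the calcium-calmodulin signalling machinery were examined in mouse brain tissue labelled as basolateral amygdala, a region needed for fear memory. The genes were chosen by name, with earlier results of these data known. They are Nrgn, the 4 genes of calcium/calmodulin-dependent protein kinase II (CaMKII) Camk2a, Camk2b, Camk2g and Camk2d, the kinase genes Camkk2 and Camk4, and the calcineurin catalytic subunit genes Ppp3ca and Ppp3cb. All 9 were found among the 54532 genes of the table, and all 9 were among the 16155 tested genes, whose mean was 0.5 FPKM or more. FPKM is fragments per kilobase of gene length, scaled to library size. The samples are 3 libraries from CNTNAP4-KO mice (KO) and 3 from wild-type mice (WT), all labelled male. Cntnap4 encodes a synaptic adhesion molecule related to the neurexins. The labels state neither age nor strain, nor which part of Cntnap4 was removed. The bacterium Lactobacillus reuteri stands in the series title, and no title of the 6 samples names treatment with it.

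Calcium that enters a neuron binds calmodulin, and loaded calmodulin switches on both kinases and a phosphatase. Neurogranin, the Nrgn product, holds calcium-free calmodulin near the postsynaptic membrane and releases it when calcium rises. CaMKII is a many-subunit kinase that phosphorylates glutamate receptors and, once active, can phosphorylate itself and stay active after calcium has dropped, a step needed for long-term potentiation. CaMKK2 is a kinase that activates CaMKIV, which phosphorylates the transcription factor CREB in the nucleus. Calcineurin is the calcium-activated phosphatase that opposes these kinases and takes part in long-term depression and in the extinction of fear memory.

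Several facts about the libraries come before the results. Recovered reads in genes numbered between 17647556 and 20813211 per library. Cntnap4 measured 1.61, 1.00 and 1.48 FPKM in KO replicates 1 to 3, against 2.03, 3.59 and 4.91 FPKM in WT replicates 1 to 3, so every KO library was below every WT library and none was at 0. The library labelled KO replicate 1 held 43.0 FPKM of Xist, the RNA made by the inactive X chromosome, and 0 reads on 4 Y-linked genes, which goes against its male label. KO replicate 2 stood apart in regional markers. Slc17a7, the vesicular glutamate transporter of cortical and basolateral amygdala excitatory neurons, measured 21.4, 94.3 and 19.1 FPKM in KO replicates 1 to 3 and 5.69, 5.37 and 6.42 FPKM in WT replicates 1 to 3. Against the label, this defining marker was far below Ppp1r1b, a marker of striatal projection neurons, at 398 ± 81.7 FPKM in KO and 248 ± 31.0 FPKM in WT (SD, n = 3 each). The labels tell animals apart by a number alone, so a p-value here reflects the spread among these libraries. That spread holds the differences of KO replicates 1 and 2 given above, and the rest may be technical.

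In KO, 8 of the 9 genes had a higher mean than in WT and 1, Camk2d, had a slightly lower mean. The KO minus WT difference was largest for Nrgn, at 0.87 on the log2(FPKM + 0.5) scale, followed by Camk2a at 0.73. No gene of the 9 passed the limma test across all genes at an adjusted p of 0.05, and the smallest adjusted p was 0.184, for Nrgn. Over all genes tested 2 passed, or 0.0124%. At an unadjusted p under 0.05, 4 of the 9 were higher in KO and 0 were lower, where 8.36% of all genes tested were higher and 6.85% lower. The same 9 genes in voom, a count-based test on the recovered reads, also gave 0 past the adjusted threshold and 4 higher in KO at an unadjusted p under 0.05. The median log2 difference was 0.38 over the 9 genes, or 0.19 without KO replicate 2, and 0.01 over all genes tested. Every KO library was above every WT library for 4 of the 9 genes, Nrgn, Camk2a, Camk2b and Ppp3cb, where 11.8% of all genes tested showed that order and 10.8% the opposite order, which none of the 9 showed. Without KO replicate 2, 5 of the 9 had KO above WT, Camk2g being added, where 17.2% of genes did, and 3 of the 9 were higher at an unadjusted p under 0.05, where 7.28% of genes were. Without KO replicate 1 these numbers were 4, where 17.3% of genes had KO above WT, and 3, where 7.56% of genes were higher. Because the 9 genes were chosen with earlier results known, these counts and medians describe them and do not test them as a set. In bulk tissue, fewer cells of a type and less RNA per cell cannot be told apart, which holds for every value below.

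**Figure D1:**
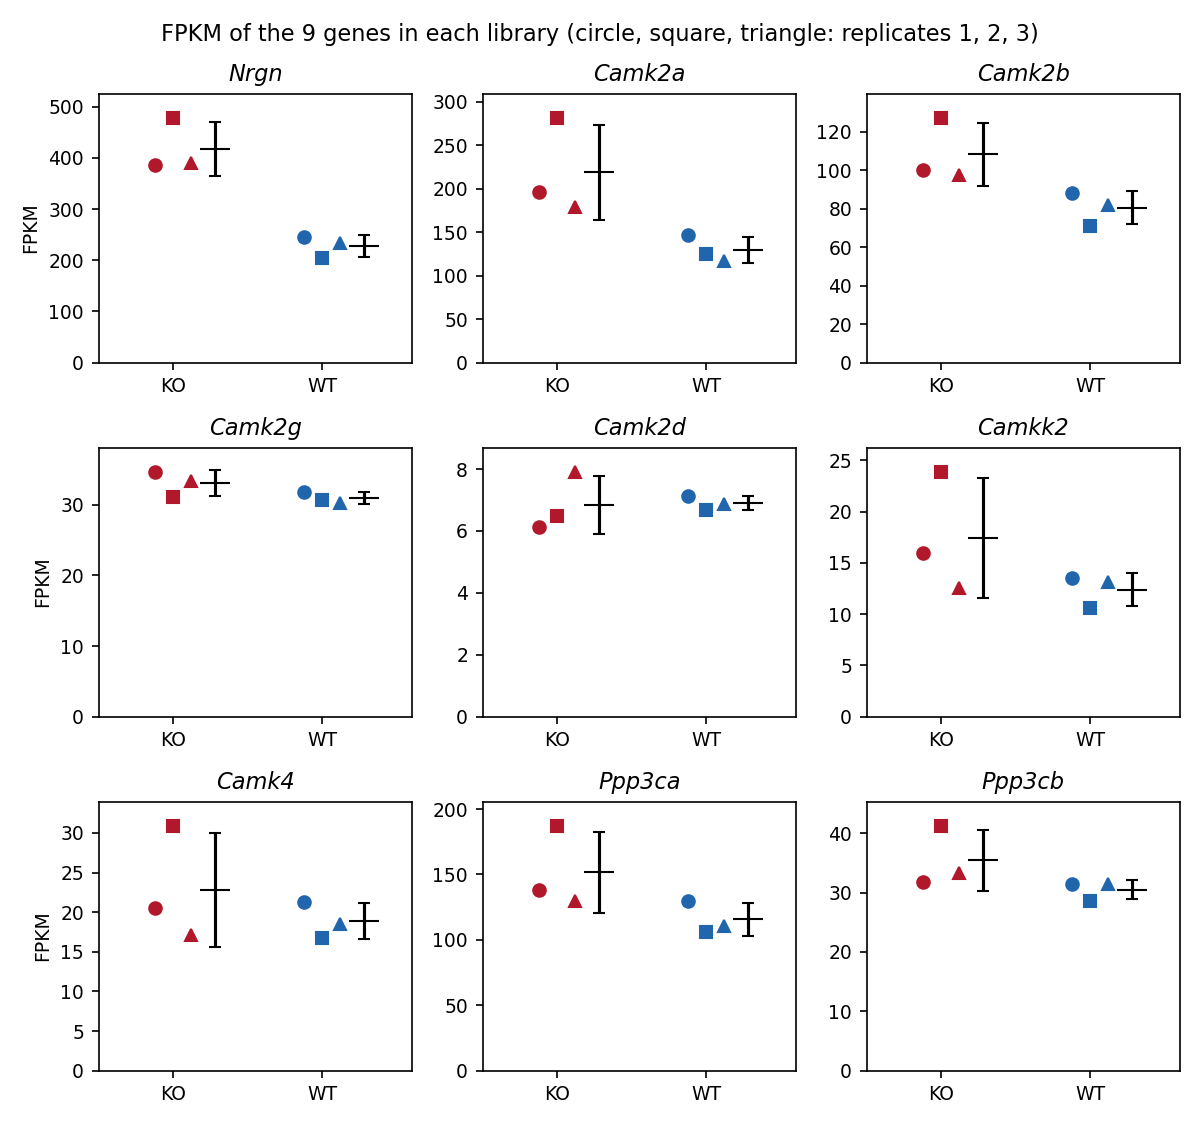
FPKM of each of the 9 genes by library, with a panel per gene, KO on the left in red and WT on the right in blue. Each point is a library, and the bars beside the points show the mean and SD (n = 3). KO replicate 2, the red square, is the highest of the 6 libraries in 7 panels, and Nrgn and Camk2a show the widest gaps between the groups.

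Neurogranin transcripts were the most abundant of the set and had the widest separation between the groups. Nrgn (ENSMUSG00000053310, chromosome 9, 37544492 to 37552904, minus strand, GRCm38) measured 385, 478 and 389 FPKM in KO replicates 1 to 3, against 245, 204 and 234 FPKM in WT replicates 1 to 3. The lowest KO library was thus well above the highest WT library. The mean was 418 ± 52.4 FPKM in KO and 228 ± 21.4 FPKM in WT (SD, n = 3 each), which puts KO at 183% of WT. Its log2 difference of 0.87 ± 0.12 (standard error) had a 95% interval of 0.59 to 1.15, an unadjusted p of 0.000161 and a limma adjusted p of 0.184. Nrgn ranked 63 of all genes by mean level, and its value rested on 5328 to 12576 reads per library. Without KO replicate 2 the log2 difference was 0.77, and without KO replicate 1 it was 0.92. The adjusted p was between 0.0529, in voom, and 0.369, without WT replicate 2, over the alternatives.

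The 4 CaMKII genes gave differences of unequal size. Camk2a encodes the alpha subunit, the predominant form in forebrain excitatory neurons, and Camk2b the beta subunit, which binds actin in dendritic spines. For both genes all KO libraries exceeded all WT libraries. Camk2a (ENSMUSG00000024617, chromosome 18, 60925618 to 60988152, plus strand) measured 197, 282 and 179 FPKM in KO replicates 1 to 3, against 146, 125 and 117 FPKM in WT replicates 1 to 3. The groups did not overlap, with KO replicate 3 nearest to WT replicate 1. Its log2 difference was 0.73 ± 0.18 with a 95% interval of 0.31 to 1.16 (limma adjusted p = 0.205), and 0.54 without KO replicate 2. The adjusted p of Camk2a was between 0.0960, in voom, and 0.481, without WT replicate 2, over the alternatives.

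Camk2b (ENSMUSG00000057897, chromosome 11, 5969644 to 6066362, minus strand) measured 100.05, 127 and 97.7 FPKM in KO replicates 1 to 3, against 87.8, 71.0 and 82.1 FPKM in WT replicates 1 to 3. The gap between the nearest libraries of the groups was smaller than for Camk2a. The log2 difference was 0.42 ± 0.13 with a 95% interval of 0.12 to 0.73 (limma adjusted p = 0.242), and 0.30 without KO replicate 2.

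Camk2g and Camk2d encode the gamma and delta subunits, which are also made in many tissues outside the brain. Camk2g (ENSMUSG00000021820, chromosome 14, 20734875 to 20794088, minus strand) measured 34.6, 31.1 and 33.4 FPKM in KO replicates 1 to 3, against 31.8, 30.7 and 30.3 FPKM in WT replicates 1 to 3. It was the steadiest of the 9, and KO replicate 2 was here the lowest KO library, inside the WT range. Its log2 difference was 0.09 ± 0.07 with a 95% interval of -0.07 to 0.26 (limma adjusted p = 0.564). Camk2d (ENSMUSG00000053819, chromosome 3, 126596302 to 126846326, plus strand) measured 6.12, 6.496 and 7.91 FPKM in KO replicates 1 to 3, against 7.14, 6.69 and 6.88 FPKM in WT replicates 1 to 3. The 3 KO libraries spanned the WT values on both sides. Its log2 difference was -0.02 ± 0.10 with a 95% interval of -0.26 to 0.22 (limma adjusted p = 0.946), and its sign turned without KO replicate 1 (0.05), KO replicate 2 (0.01) or WT replicate 1 (0.0034).

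Because the 4 genes were measured in the same library, their shares of the summed CaMKII FPKM do not depend on how a library was scaled. The sum was 338, 446 and 318 FPKM in KO replicates 1 to 3, and 273, 234 and 236 FPKM in WT replicates 1 to 3. Camk2a made up 58.3%, 63.1% and 56.2% of the sum in KO replicates 1 to 3, against 53.6%, 53.6% and 49.5% in WT replicates 1 to 3. Every KO library thus had a larger Camk2a share than any of the WT libraries. The mean share was 59.2% ± 3.52 in KO and 52.2% ± 2.39 in WT (SD, n = 3 each), a difference of 6.99 percentage points. An exact two-sided permutation test gave p = 0.1, its lowest possible value for 3 against 3 libraries, and 0.16 after Benjamini-Hochberg adjustment over the 8 shares and ratios computed. Camk2g made up 9.25% ± 1.98 in KO and 12.5% ± 0.791 in WT, and Camk2d 1.92% ± 0.525 in KO and 2.80% ± 0.162 in WT, again with no overlap between the groups (exact permutation p = 0.1 for each, adjusted p = 0.16). The 4 shares add up to the whole, so these lower shares are not results separate from the higher Camk2a share. The log2 differences of Camk2g and Camk2d themselves were 0.09 and -0.02, with overlapping groups. The CaMKII ratios below draw on the same genes. The Camk2b share overlapped, at 29.6% ± 1.14 in KO and 32.4% ± 2.22 in WT (exact permutation p = 0.2). Without KO replicate 2 the Camk2a share still differed by 5.04 percentage points, and the KO libraries left were both above all WT libraries.

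**Figure D2:**
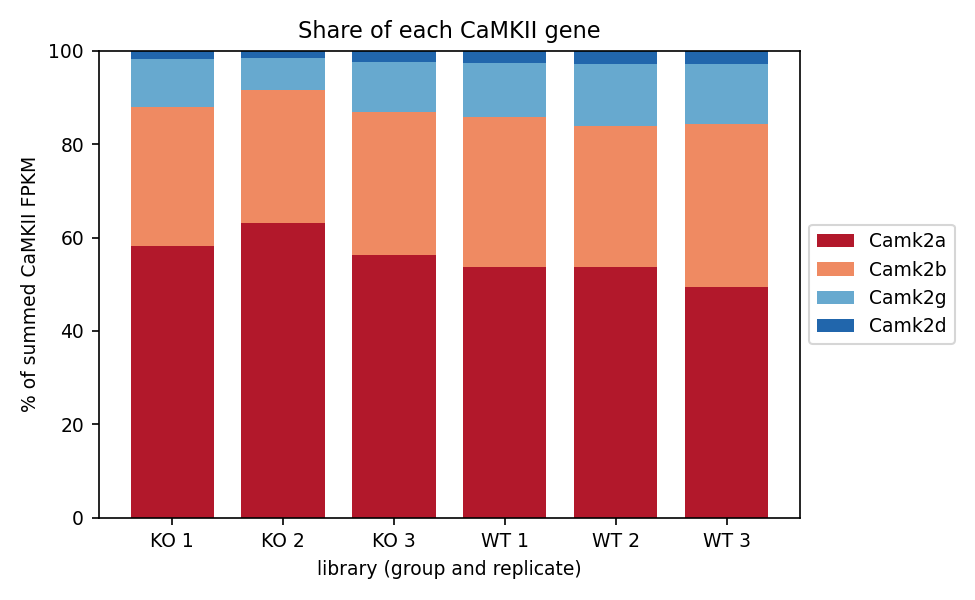
Share of each CaMKII gene in the summed CaMKII FPKM, in percent, as stacked bars with a bar per library, KO on the left and WT on the right. The Camk2a part at the base is 56.2% to 63.1% in KO and 49.5% to 53.6% in WT, and the Camk2g and Camk2d parts at the top are smaller in each KO library than in all 3 WT libraries.

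The ratio of alpha to beta transcripts also separated the libraries by group. The log2 ratio of Camk2a to Camk2b was 0.98, 1.15 and 0.87 in KO replicates 1 to 3, against 0.74, 0.82 and 0.51 in WT replicates 1 to 3. The KO minus WT difference in this log2 ratio was 0.31 (exact two-sided permutation p = 0.1, adjusted p = 0.16 over the 8 measures). The log2 ratio of Camk2b to Camk2g was also higher in each KO library, at 1.70 ± 0.28 in KO and 1.37 ± 0.14 in WT (exact permutation p = 0.1). The log2 ratio of Nrgn to Camk2a overlapped, at 0.95 ± 0.18 in KO and 0.82 ± 0.16 in WT (exact permutation p = 0.4).

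For the genes of the nuclear kinase cascade the groups overlapped, and KO replicate 2 was the library farthest from WT. Camkk2 (ENSMUSG00000029471, chromosome 5, 122731170 to 122779409, minus strand), which encodes an activating kinase, measured 15.9, 23.9 and 12.5 FPKM in KO replicates 1 to 3, against 13.5, 10.5 and 13.1 FPKM in WT replicates 1 to 3. KO replicate 3 lay inside the WT range, so the groups overlapped. The log2 difference was 0.44 ± 0.23 with a 95% interval of -0.11 to 0.98 (limma adjusted p = 0.413), and 0.19 without KO replicate 2. Camk4 (ENSMUSG00000038128, chromosome 18, 32939041 to 33195767, plus strand) measured 20.5, 30.9 and 17.1 FPKM in KO replicates 1 to 3, against 21.3, 16.7 and 18.5 FPKM in WT replicates 1 to 3. Both other KO libraries lay within the WT range. Its log2 difference was 0.23 ± 0.21 with a 95% interval of -0.27 to 0.74 (limma adjusted p = 0.628), and -0.0018 without KO replicate 2.

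The calcineurin catalytic subunit genes showed smaller differences than Nrgn and Camk2a. Ppp3ca (ENSMUSG00000028161, chromosome 3, 136670124 to 136937727, plus strand) encodes the alpha isoform, the main form in brain. Its level was 138, 187 and 129.8 FPKM in KO replicates 1 to 3, against 130.0, 106 and 111 FPKM in WT replicates 1 to 3. KO replicate 3 and WT replicate 1 met at the boundary, and the other libraries kept to their side. The log2 difference was 0.38 ± 0.15 with a 95% interval of 0.01 to 0.74 (limma adjusted p = 0.314), and 0.22 without KO replicate 2. Ppp3cb (ENSMUSG00000021816, chromosome 14, 20499364 to 20546573, minus strand), the beta isoform gene, measured 31.7, 41.2 and 33.3 FPKM in KO replicates 1 to 3, against 31.5, 28.6 and 31.4 FPKM in WT replicates 1 to 3. The groups did not overlap, but KO replicate 1 and WT replicate 1 were nearly level. Its log2 difference was 0.20 ± 0.11 with a 95% interval of -0.06 to 0.46 (limma adjusted p = 0.425), and 0.09 without KO replicate 2. The log2 ratio of Ppp3ca to Ppp3cb was 2.09 ± 0.11 in KO and 1.92 ± 0.12 in WT and overlapped (exact permutation p = 0.2).

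**Figure D3:**
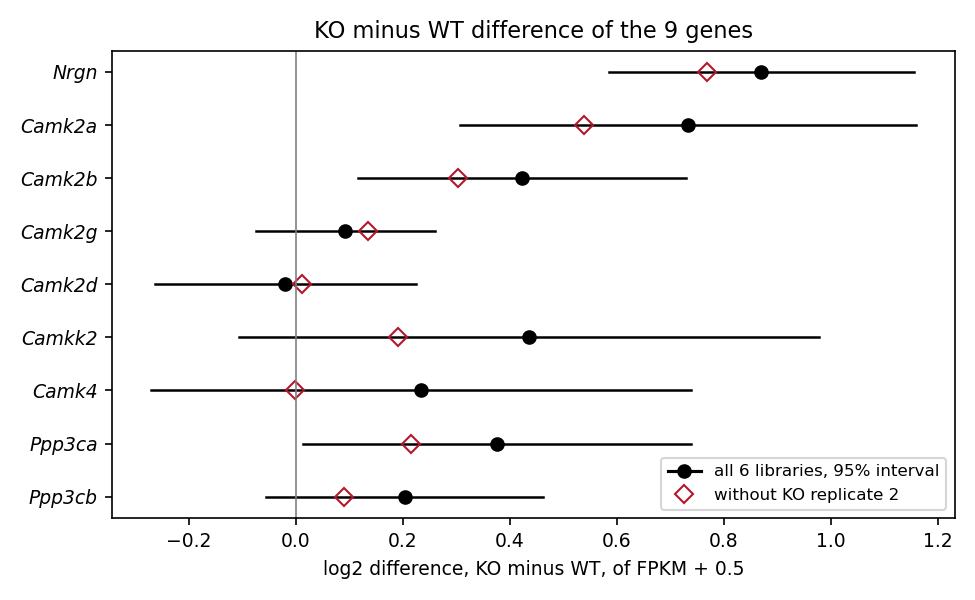
KO minus WT difference of log2(FPKM + 0.5) for each of the 9 genes. Filled circles with lines give the limma estimate and its 95% interval from all 6 libraries, and open diamonds the estimate without KO replicate 2. Nrgn, Camk2a, Camk2b and Ppp3ca have intervals above 0 before adjustment, and the Camk4 diamond lies at 0.

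By level per gene length, the order of the 9 genes was almost the same in both groups. In KO the order was Nrgn, Camk2a, Ppp3ca, Camk2b, Ppp3cb, Camk2g, Camk4, Camkk2 and Camk2d, with means from 418 down to 6.84 FPKM. In WT only Ppp3cb and Camk2g changed places, and the means ran from 228 down to 6.90 FPKM. These neighbours did not differ beyond their spread, at 35.4 ± 5.09 and 33.1 ± 1.80 FPKM in KO and at 30.5 ± 1.64 and 31.0 ± 0.804 FPKM in WT. The ranges of Camk2a and Ppp3ca overlapped in each group, although Camk2a was above Ppp3ca in 3 of 3 libraries of each group. In KO the ranges of Camk4 and Camkk2 also overlapped. The deposited gene lengths, from 1453 bases for Nrgn to 22493 for Camk2d, set these levels in part.

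Most of the 9 genes shared their highest and lowest libraries. KO replicate 2 was the highest of the 6 libraries for 7 of the 9 genes, the exceptions being Camk2g and Camk2d. Its excess over the mean of KO replicates 1 and 3 was largest for Camkk2 (log2 0.76), Camk4 (0.72) and Camk2a (0.59) and smaller for Nrgn (0.30). WT replicate 2 was the lowest of the 6 libraries for 6 of the 9 genes. The closest pair of profiles over the 6 libraries was Camk2b and Ppp3ca, with a root mean square difference of 0.07 in centred log2(FPKM + 0.5). The farthest pair was Nrgn and Camk2d, at 0.48.

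Markers of several cell types differed between the same libraries. The marker lists were also drawn up with earlier results of these data known. All 10 listed markers of pallial excitatory neurons, those of cortex, hippocampus and basolateral amygdala, had a higher mean in KO. Their summed level was 38.0 to 139 FPKM in KO and 16.8 to 18.0 FPKM in WT, and for 7 of the 10 every KO library was above every WT library, where 11.8% of all genes tested were. All 10 markers of striatal medium spiny neurons, which also make Camk2a, Camk4 and Nrgn, had a higher mean in KO, with a summed level of 1218 to 1755 FPKM in KO and 866 to 1160 FPKM in WT, and for 4 of the 10 every KO library was above every WT library. In both lists KO replicate 2 was highest, and no marker was at 0 in any library. All 10 oligodendrocyte markers had a lower mean in KO, with a summed level of 914 to 1362 FPKM in KO and 1496 to 1984 FPKM in WT, and for 8 of the 10 every KO library was below every WT library, where 10.8% of all genes tested were. The lowest sum was in KO replicate 2 and the highest in WT replicate 2, the libraries at the opposite ends for most of the 9 genes. Summed hypothalamic markers were 1082, 9.86 and 359.5 FPKM in KO replicates 1 to 3 and 525 to 972 FPKM in WT, with 2 of 8 having a higher mean in KO. Those 2 were low, Hcrt at 0.0742 to 0.527 FPKM and Pmch at 0.148 to 2.48 FPKM over the libraries. Avp alone measured 894, 2.20 and 325 FPKM in KO replicates 1 to 3 and 350 to 783 FPKM in WT.

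The summed levels of the other listed cell types overlapped between the groups. Summed interneuron markers were 737 to 865 FPKM in KO and 650 to 770 FPKM in WT, with 4 of 8 higher in KO. For 2 of these 8 every KO library was above every WT library, and for 2 every KO library was below. Over all genes tested these shares were 11.8% and 10.8%. Astrocyte sums were 378 to 453 FPKM in KO and 403 to 439 FPKM in WT (3 of 8 higher in KO), and endothelial sums 98.8 to 116 FPKM in KO and 101 to 126 FPKM in WT (4 of 7). The groups were apart for 0 astrocyte markers and for 1 endothelial marker, which was lower in KO. Microglial sums were 220 to 284 FPKM in KO and 268 to 301 FPKM in WT, with 0 of 8 higher in KO. For 3 of these 8 every KO library was below every WT library. No marker in any of the 8 lists passed the adjusted threshold. The part of these cell-type differences in the values of the 9 genes was not tested.

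**Figure D4:**
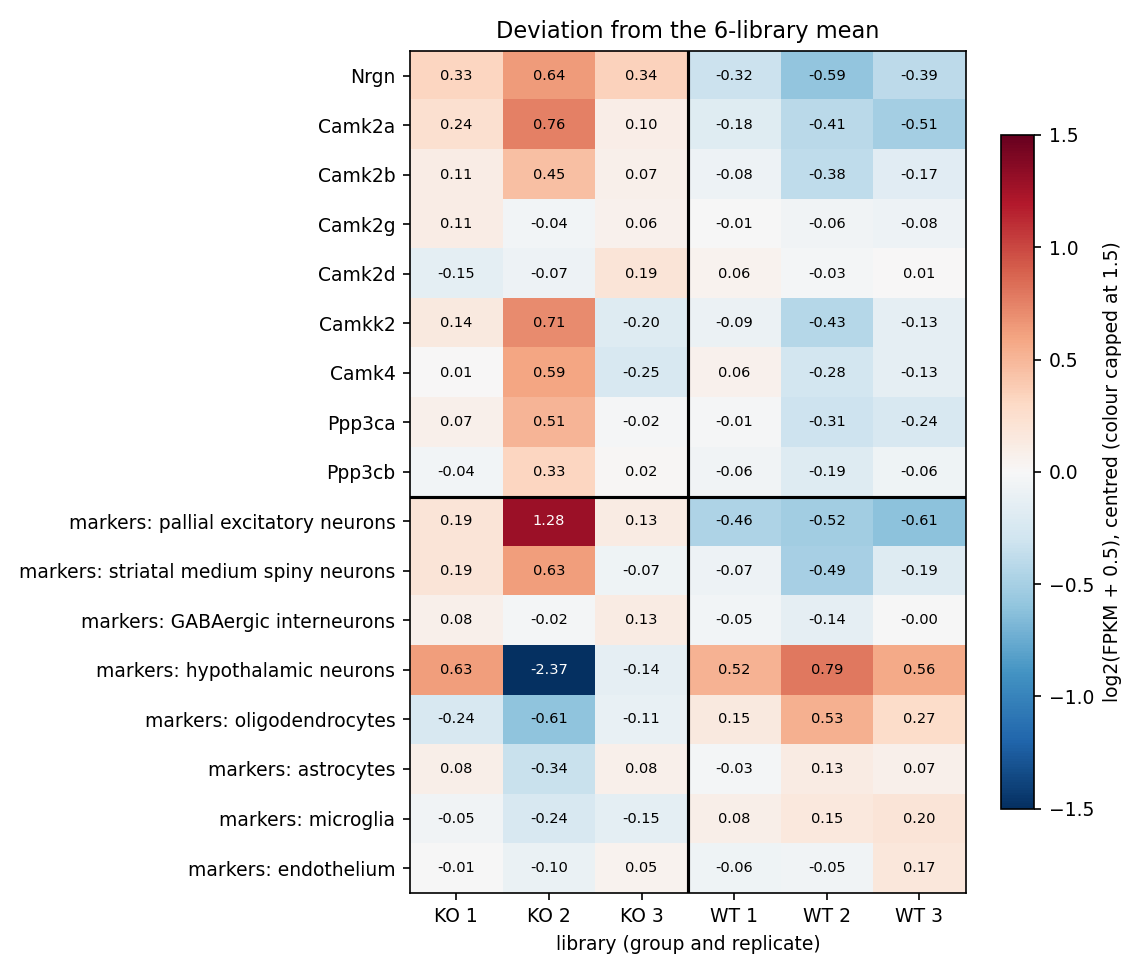
Deviation of each gene, and of the mean over each marker list, from its own 6-library mean in log2(FPKM + 0.5), with libraries in columns, KO on the left and WT on the right. Red is above and blue below the mean. KO replicate 2 shows Camk2a at 0.76, the pallial markers at 1.28, the oligodendrocyte markers at -0.61 and the hypothalamic markers at -2.37. The last lies beyond the colour scale, and Camk2g and Camk2d stay pale throughout.

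With earlier results of these data known, 90 further genes of the pathway around the 9 were listed in 6 groups, and 84 were tested. None passed the adjusted threshold (smallest limma adjusted p = 0.200), and voom called 0 as well. At an unadjusted p under 0.05, 25 were higher in KO and 1 was lower, against 8.36% and 6.85% of all genes tested. Leaving out KO replicates 1, 2 and 3 in turn gave 25, 16 and 24 higher genes, and leaving out WT replicates 1, 2 and 3 gave 21, 10 and 13. Over all genes tested, 7.56% and 7.28% were higher without KO replicates 1 and 2. In either direction, 2457 of 16155 genes had an unadjusted p under 0.05 with all libraries, and 2249 of 16128 without KO replicate 3. Without WT replicates 1, 2 and 3 they were 1946 of 16149, 1520 of 16129 and 2211 of 16167. The list counts of higher genes below stand against the shares of higher genes given above. Without KO replicate 3 or a WT replicate, only numbers in either direction are given. Those hold higher and lower genes together, so they are no direct match for a count of higher genes. The median log2 difference of the 84 genes was 0.15, or 0.10 without KO replicate 2, against 0.01 over all genes tested.

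Among calmodulin genes and calmodulin-binding buffers, 4 of 8 were higher in KO at an unadjusted p under 0.05 and 0 were lower, with a median log2 difference of 0.18. The number was 2 when KO replicate 2 or 3 or WT replicate 1 or 2 was left out. Pcp4 encodes a small calmodulin-binding protein, and Pcp4l1 a relative of it. Pcp4l1 measured 215 ± 41.6 FPKM in KO and 139 ± 14.2 FPKM in WT (log2 0.61, limma adjusted p = 0.205), and Pcp4 69.4 ± 5.63 FPKM in KO and 44.9 ± 15.7 FPKM in WT (log2 0.69). Camk2n1, an endogenous CaMKII inhibitor, measured 375 ± 50.2 FPKM in KO and 298 ± 1.44 FPKM in WT (log2 0.32). For these 3 genes, named for their small p, each KO library was above all WT libraries. That order held for 4 of the 8 listed genes and the opposite order for 0, against 11.8% and 10.8% of all genes tested.

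Of 18 postsynaptic partners and targets of CaMKII, 8 were higher in KO at an unadjusted p under 0.05 and 0 were lower, with a median log2 difference of 0.29. The number was 5 when KO replicate 2 was left out, 2 when WT replicate 2 was and 4 when WT replicate 3 was, and the median was 0.16 without KO replicate 2. The actin crosslinker gene Actn2, whose product binds CaMKII, measured 14.6 ± 3.69 FPKM in KO and 8.42 ± 1.12 FPKM in WT (log2 0.73). The scaffold gene Dlg4, which encodes PSD-95, had a log2 difference of 0.33. For both genes, named for their small p, each KO library was above all WT libraries, with limma adjusted p between 0.220 and 0.243. That order held for 6 of the 18 genes and the opposite order for 0, against 11.8% and 10.8% of all genes tested.

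Of 16 tested partners, inhibitors and targets of calcineurin, 4 were higher in KO at an unadjusted p under 0.05 and 0 were lower, with a median log2 difference of 0.05. Leaving out KO replicate 1 gave a median of 0.03, WT replicate 1 of 0.02 and WT replicate 3 of 0.09. With a filter at 5 FPKM the median was 0.13. Ppp1r1a, a phosphatase inhibitor whose product calcineurin dephosphorylates, measured 64.0 ± 13.1 FPKM in KO and 40.0 ± 2.44 FPKM in WT (log2 0.65, limma adjusted p = 0.200). Fkbp1a, which encodes the binding protein of the calcineurin-blocking drug FK506, measured 153 ± 12.02 FPKM in KO and 118.5 ± 7.10 FPKM in WT (log2 0.37). Ppp1r1b, given above as a striatal marker, had a log2 difference of 0.67. These genes, named for their small p, were higher in each KO library than in any WT library. That order held for 4 of the 16 tested genes and the opposite order for 0, against 11.8% and 10.8% of all genes tested.

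Of 15 other CaM-dependent kinase genes tested, 3 were higher in KO at an unadjusted p under 0.05 and 0 were lower, with a median log2 difference of 0.15. The number was 5 when KO replicate 3 was left out, 1 when WT replicate 3 was, and 2 when KO replicate 1 or WT replicate 1 or 2 was. Camkv, a catalytically inactive relative of the CaM kinases, measured 177 ± 30.2 FPKM in KO and 122 ± 17.8 FPKM in WT (log2 0.53, limma adjusted p = 0.230). Camk1d had a log2 difference of 0.45 and Camkk1, the other CaM kinase kinase gene, 0.31.

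In the nuclear arm, 4 of 19 genes were higher in KO at an unadjusted p under 0.05 and 1 was lower, with a median log2 difference of 0.05. Leaving out KO replicate 2 gave 2 higher genes, and leaving out WT replicate 2 or 3 gave 1. Prkaa1, a catalytic subunit of the energy sensor AMPK that CaMKK2 can activate, was the lower gene, at 9.16 ± 0.310 FPKM in KO and 11.4 ± 0.328 FPKM in WT (log2 -0.30, limma adjusted p = 0.200). Sik1, an activity-induced kinase that holds back CREB coactivators, measured 4.78 ± 0.511 FPKM in KO and 3.56 ± 0.186 FPKM in WT (log2 0.37), and Crtc1, a CREB coactivator that calcineurin dephosphorylates, had a log2 difference of 0.35.

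Of 8 protein kinase C genes listed, 2 were higher in KO at an unadjusted p under 0.05 and 0 were lower, with a median log2 difference of 0.23. Leaving out WT replicate 2 or 3 gave 0 higher genes, leaving out KO replicate 2 gave 1 and a median of 0.11, leaving out KO replicate 3 gave 3, and the median was 0.13 without WT replicate 2. Prkcz had a log2 difference of 0.27 and Prkce of 0.37, and Prkcq measured 1.77 ± 0.270 FPKM in KO and 2.26 ± 0.142 FPKM in WT (log2 -0.29, limma adjusted p = 0.332).

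Outside the pathway, the genes most like Nrgn over the 6 libraries were Kcns1, Limd2 and Nell2, among 13886 genes that averaged 1 FPKM or more. Their root mean square differences from the centred Nrgn profile were 0.08, 0.10 and 0.10 on the log2 scale. Kcns1, a modulatory potassium channel subunit gene, measured 3.29, 4.66 and 3.06 FPKM in KO replicates 1 to 3 and 2.14, 1.64 and 1.85 FPKM in WT replicates 1 to 3. The genes most like Camk2a were Cacnb3, a calcium channel beta subunit gene, Wasf1, an actin regulator gene, and Pcp4l1, with differences of 0.07, 0.07 and 0.08. Pcp4l1 is one of the calmodulin-binding buffer genes listed above. Cacnb3 measured 36.6, 55.4 and 36.6 FPKM in KO replicates 1 to 3 and 29.0, 26.3 and 25.1 FPKM in WT replicates 1 to 3, again with KO replicate 2 highest.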

How the data were processed

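Per the labels' protocols, RNA was purified on RNeasy columns and sequenced after SMARTer mRNA library preparation. The genome build was GRCm38 (mm10), per the submitters' processing notes. Aligner, counter, annotation release and use of strand were not given in the sources used here. The authors deposited 1 table of FPKM values with gene lengths. FPKM multiplied by gene length gave whole multiples of 1 step per library for 100% of nonzero values, within 0.01, and that step was taken as 1 read. In a gene of 1 kilobase, 1 read was worth 0.0460 to 0.0564 FPKM. Reads carry no molecular identifiers. Camk2a overlaps 2 microRNA genes, and other overlapping genes were at most 1.29 FPKM.

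The 9 genes, the pathway and marker lists and the tests were chosen with earlier results of these data known. Groups were compared by limma-trend, empirical Bayes being robust (limma 3.58.1, R 4.3.3) on log2(FPKM + 0.5) for KO minus WT over 16155 genes averaging 0.5 FPKM or more, adjusted by Benjamini-Hochberg at 0.05. That scale understates changes of low genes. Shares and ratios used an exact permutation test. The fit was tested on simulated data. Named pathway genes are the 3 with the smallest unadjusted p per list, and likeness genes the 3 nearest profiles. A result that this rule would name is not reported here. Slc17a7, Ppp1r1b and Xist were named after their values were seen. Alternatives covered a pseudocount of 0.1 or 1, a filter at 5 FPKM or none, 3 scalings, plain empirical Bayes, array quality weights, a replicate block, protein-coding genes only, voom on recovered reads, an adjusted p of 0.1 and leaving out each library. 0 columns of sample values were left unmatched.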

Additional observations from a re-analysis of the deposited data

How the results depend on the processing

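None of the 9 genes and none of the 84 tested pathway genes passed the adjusted threshold in any of the alternatives run. The number passing over all genes was 2 and was 0 with a pseudocount of 0.1, no filter, a filter at 5 FPKM, the replicate block, protein-coding genes only or voom, 1 with quantile normalization, 5 with an equal FPKM sum, and 0 to 9 when a library was left out. The cause was not tested. The median over the 9 genes was 0.19 to 0.48 over the alternatives, and 3 to 5 of the 9 were higher in KO at an unadjusted p under 0.05. Of the 9 genes, 7 kept their sign throughout. The Camk2d difference of -0.02 was 0.048 with array quality weights and ran from -0.12 to 0.052 when a library was left out, above 0 without KO replicate 1 or 2 or WT replicate 1. The Camk4 difference ran from -0.0018, without KO replicate 2, to 0.41. When a library was left out, the KO minus WT difference was 5.04 to 8.47 percentage points in the Camk2a share, 0.22 to 0.38 in the log2 ratio of Camk2a to Camk2b and 0.12 to 0.23 in that of Ppp3ca to Ppp3cb. The counts of 5 and 4 genes with KO above WT without KO replicate 2 or 1 were chosen after seeing the data. Same-numbered libraries did not deviate together (correlations of -0.14 to -0.07). With 3 libraries per group this cannot show whether the replicate numbers pair the samples, and the labels do not say. With the replicate block Nrgn had an adjusted p of 0.349 and 3 of the 9 genes an unadjusted p under 0.05. The fewest reads on any of the 9 genes in a library were 2072.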
